A study of Mus musculus with 12 samples.

Results

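Ankyrins and spectrins make up the skeleton that lies under the membrane of an axon, and their 7 genes Ank1, Ank2, Ank3, Sptan1, Sptb, Sptbn1 and Sptbn4 were followed here in maps of 5-hydroxymethylcytosine (5-hmC), an oxidised form of methylated cytosine, from mouse dorsal root ganglia after nerve injury. The members are all regions of the 3 deposited pairwise tables whose gene name is one of these 7. They came to 68 of the 70430 listed regions, with 17 of 12244 between peripheral lesion and control, 34 of 35242 between dorsal column lesion and control, and 17 of 22944 between the lesions. All 7 genes carried at least 1 region in some table.

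The ganglia came from lumbar levels L4 to L6, taken 24 h after the sciatic nerve was lesioned (peripheral lesion, PL) or after a dorsal column lesion, which cuts the central branch of the same neurons in the spinal cord (DCL). The uninjured control (Ctrl) was the contralateral ganglia of the PL animals, so control and PL ganglia can share animals, while no side control of DCL animals is among the groups. Each group had 3 enriched libraries, each from ganglia pooled from 3 animals. The labels used here name no strain, sex, age, genotype or transgene, and 5-hmC is not a measure of expression, so the tissue could not be checked by marker genes. Whole ganglia hold neurons, glia, immune and vascular cells, and a difference in 5-hmC per cell and a difference in cell makeup cannot be told apart.

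Spectrins are long rods built from an alpha chain (Sptan1 in neurons) and a beta chain (Sptb, Sptbn1, Sptbn4 in this set), which link rings of actin along the axon into a periodic lattice. Ankyrins fasten this lattice to membrane proteins. Ankyrin-G, the product of Ank3, gathers sodium and potassium channels at the axon initial segment and at nodes of Ranvier together with beta-IV spectrin (Sptbn4), whereas ankyrin-B (Ank2) and beta-II spectrin (Sptbn1) serve the rest of the axon. Ank1 and Sptb encode ankyrin-R and beta-I spectrin, best known from the red blood cell. In neurons 5-hmC is abundant within gene bodies.

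The tables give, for each region, a normalised read count in each library and list only regions that the authors had selected for a difference. That selection fixed the direction of every member, so counts and folds are given as descriptions and the adjusted p-values are those of the authors' deposited tables. With 3 libraries against 3 the smallest two-sided exact permutation p for any single region is 0.1, so no test was run per region. Total depth is unknown. The value of 1 read was 0.907 to 1.77 in PL and 0.576 to 1.05 in Ctrl in the first table, and 3.14, 1.49 and 0.658 for DCL (libraries in the order listed) against 0.534 to 0.975 in Ctrl in the second. The first-listed DCL library stood apart. In it 1 read had the largest value, so a given normalised count rests on fewer reads than in the other DCL libraries. Over the higher DCL member regions the median of this library was 69.0, against 22.4 and 21.1 in the other DCL libraries and 16.1 to 18.2 in Ctrl. Those regions were listed for a higher DCL mean, of which this library is part. Over the lower DCL member regions its median was 9.41, against 7.47 and 7.90 in the other DCL libraries. Over all lower regions of that comparison it was 3.14, against 5.97 and 6.58. Results that rest on DCL are therefore given with and without it. No table numbers the libraries of a group, so this one cannot be matched to a labelled sample. Log2 ratios are of group means with a pseudocount of 1 normalised read count. Levels are compared only within a table, since each was normalised on its own. Of fixed marker genes for the cells of the ganglion, between PL and Ctrl a region was listed in 4 of 16 sensory neuron, 2 of 11 satellite glia and Schwann cell, 0 of 8 immune and 3 of 8 vascular and fibroblast markers. These numbers were 6, 6, 2 and 5 for DCL against Ctrl, and 4, 4, 1 and 2 for PL against DCL. Of all protein-coding genes, 20.2%, 38.3% and 30.7% had a listed region in these comparisons. The part of these cells in the results below was not tested.

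The shares of higher and lower regions in the family lay near those of each whole table. Between PL and Ctrl, 7 of the 17 member regions were higher and 10 lower, where 50.4% of all listed regions were higher and 49.6% lower. Between DCL and Ctrl 29 of 34 were higher, with 82.9% over all listed regions higher and 17.1% lower, and between PL and DCL 3 of 17 were higher, with 24.9% higher and 75.1% lower over all. The counts were uneven over genes, which was not tested: after PL, Ank3 had 6 lower regions and 1 higher, Sptbn1 had 3 lower and none higher, and Sptb had 3 higher and none lower.

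All libraries of one group lay above all of the other in 16 of 17 member regions between PL and Ctrl, against 97.8% of all regions listed there. The numbers were 19 of 34 between DCL and Ctrl, against 55.6%, and 13 of 17 between PL and DCL, against 68.9%. At an adjusted p under 0.05 in the authors' deposited tables, the members that passed numbered 17, 33 and 16, with 98.6%, 97.9% and 98.5% of all regions. Under 0.01 these tables left 10, 32 and 15, with 49.4%, 92.4% and 93.1%. A mean of at least 10 in the higher group was met by 17, 34 and 17 members, with 100%, 100% and 98.4% over all. These shares lay close to those of the whole tables.

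**Figure D1:**
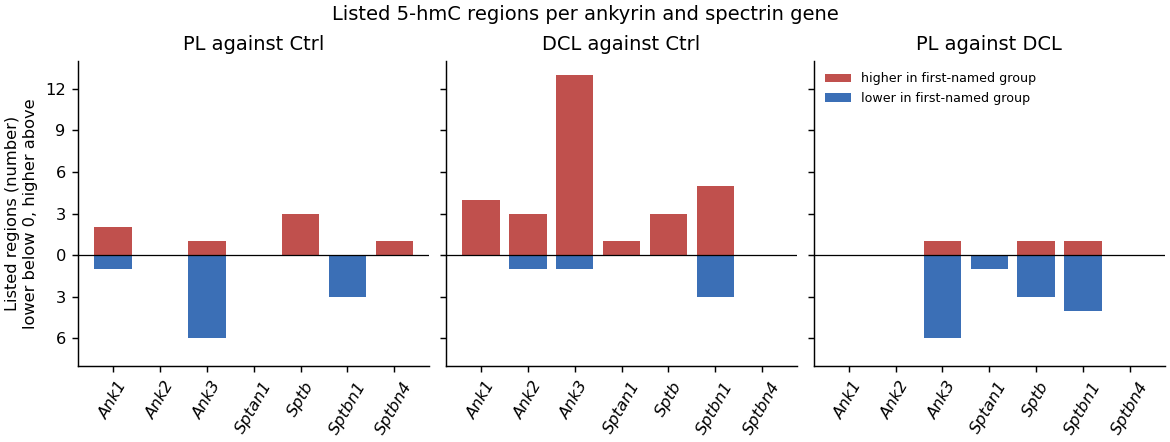
Number of listed 5-hmC regions for each gene in each of the 3 comparisons, with bars above 0 for regions higher and below 0 for regions lower in the first-named group. Ank3 has 6 lower and 1 higher regions after PL (50.4% of all listed regions were higher) and 13 higher and 1 lower after DCL (82.9% were higher), of which 4 of the 13 kept a 1.5-fold ratio without the first-listed DCL library.

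A region was listed in 5 of the 7 genes between PL and Ctrl, in 6 between DCL and Ctrl, and in 4 between PL and DCL. Over all protein-coding genes the shares were 20.2%, 38.3% and 30.7%. At least 1 higher region was listed in 4, 6 and 3 of the 7, with 12.6%, 35.4% and 11.7% over all genes, and at least 1 lower region in 3, 3 and 4, with 11.8%, 11.9% and 26.1%. The members are long genes, with a median span of 120378 bp among those listed after PL against 57055 bp over all genes with a region there, and the part of length in these shares was not tested. Related to the longest transcript that a table names, the regions of all 3 tables together came to 13.3 per 100 kb in Sptbn1, 7.69 in Sptb, 5.67 in Ank3, 5.21 in Ank2, 3.98 in Ank1, 3.04 in Sptan1 and 2.62 in Sptbn4. The comparisons share libraries, and a place listed in more than 1 of them was counted each time. No such density over all genes is given here, so the order of the genes is a description only. For Ank2, Sptbn1 and Sptbn4 the current reference gene is longer (578741, 168990 and 91322 bp) than the longest such transcript (76846, 120378 and 38124 bp), so regions in the remaining parts of these genes may not carry their names. Most member regions lay in the gene body: 14 of 17, 32 of 34 and 17 of 17, against 88.1%, 85.3% and 85.8% of all listed regions that carry a gene name. Their median lengths of 240, 240 and 220 bp lay at or near those of all listed regions, which were 220, 240 and 220 bp.

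After PL most listed regions of the ankyrin-G gene Ank3 were lower in 5-hmC. Its 6 lower regions spread from 2856 bp before the start of the long transcript NM_170729 to 332384 bp inside it, in a gene of 493729 bp. Group means in them were 3.30 to 19.7 after PL against 14.6 to 49.9 in Ctrl, with log2 ratios from −1.86 to −1.25. In each of the 6 all PL libraries lay below all controls, as in 6066 of the 6067 lower regions of that table.

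The Ank3 region with the smallest adjusted p lay 290684 bp into the gene (gene body, chromosome 10, 69286921 to 69287360, mm9). Its normalised read counts were 22.7, 13.5 and 23.1 in the PL libraries and 54.7, 46.1 and 48.99 in the controls. Every PL library was below every control, by a wide gap. The means were 19.7 ± 5.41 and 49.9 ± 4.39 (SD, n = 3 each), a log2 ratio of −1.30. The authors' deposited table gave it an adjusted p of 0.000753. The Ank3 region with the lowest PL mean lay further upstream, at chromosome 10, 69136701 to 69136920, where PL libraries had 3.63, 4.50 and 1.77 against 14.7, 14.7 and 14.4 in Ctrl. It was chosen after its values were seen, and its PL values rest on 8 reads in all.

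The single higher Ank3 region lay 14310 bp after a second listed start, that of transcript NM_009670, which begins 391824 bp downstream of the first (chromosome 10, 69402461 to 69402720). PL libraries had 29.0, 63.0 and 33.7 and controls 21.0, 20.7 and 21.3. The controls were nearly equal to each other and the PL libraries lay above them, 1 of them far above the other two. The means were 41.9 ± 18.4 and 21.0 ± 0.305 (SD, n = 3 each), a log2 ratio of 0.96, and the authors' deposited table gave an adjusted p of 0.00956. In reads summed over libraries, without scaling for depth, the region held 93 after PL and 88 in Ctrl. The 6 lower Ank3 regions of this comparison lay before this second start.

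Ank1, the ankyrin-R gene, had regions of both directions within a stretch of its body. At chromosome 8, 24211261 to 24211460 the PL libraries had 9.97, 10.5 and 8.87 against 28.4, 27.4 and 21.3 in Ctrl. The groups were well separated, with means of 9.78 ± 0.831 and 25.7 ± 3.83 (SD, n = 3 each) and a log2 ratio of −1.31. The authors' deposited table gave an adjusted p of 0.0125.

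The neighbouring higher Ank1 region, at chromosome 8, 24205881 to 24206360, had the smallest adjusted p of the gene, 0.00234 in the authors' deposited table. Its values were 64.4, 111 and 215 after PL and 74.7, 54.1 and 64.5 in Ctrl. The groups overlapped: 1 PL library lay among the controls. Means were 130.01 ± 77.0 and 64.5 ± 10.3 (SD, n = 3 each), a log2 ratio of 1.00. Before normalisation the same libraries held 71, 74 and 121 reads after PL and 71, 81 and 112 in Ctrl. Summed over libraries these came to 266 and 264 reads, so the means differ after normalisation and the read totals do not. Over the 7 higher member regions of this comparison the median totals were 82 reads after PL and 71 in Ctrl. Among the 17 member regions of this table this Ank1 region was the one whose groups overlapped. The other higher Ank1 region, at 24223581 to 24223860, had means of 25.0 after PL and 8.86 in Ctrl.

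Ank2, the ankyrin-B gene, carried no region listed under its name between PL and Ctrl. Its longest listed transcript spans 76846 bp and the reference gene 578741 bp, so regions elsewhere in the gene may not carry the name.

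**Figure D2:**
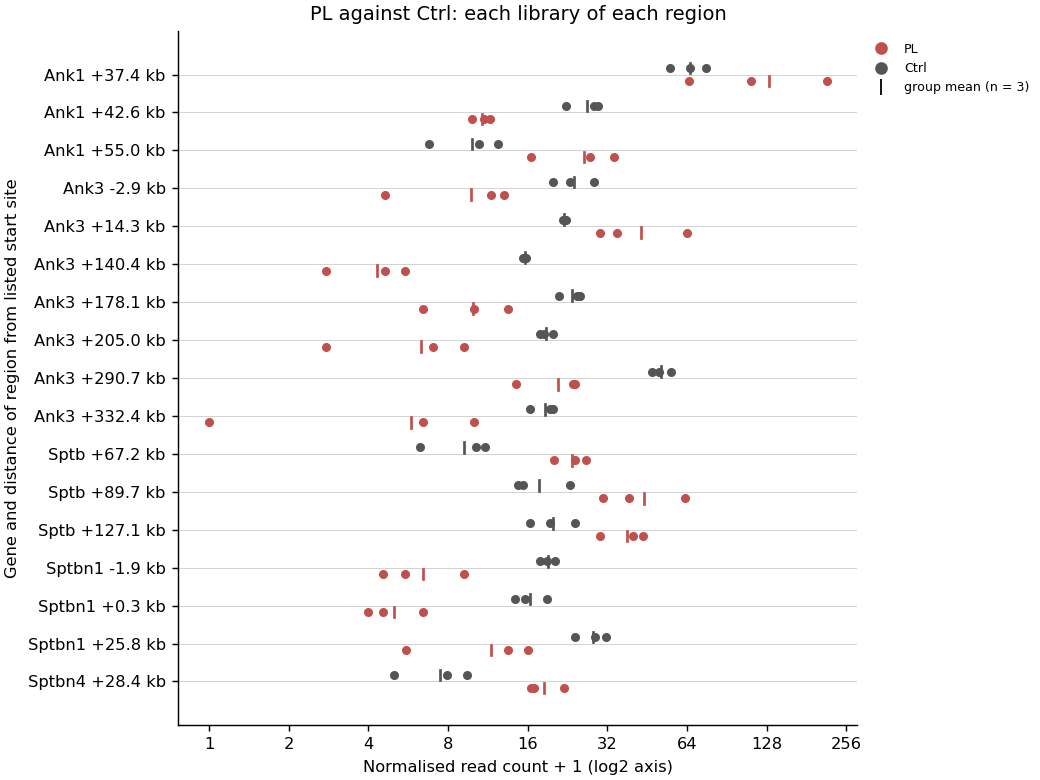
Normalised read count plus 1 on a log2 axis of each PL (red) and Ctrl (grey) library in the 17 member regions, with vertical bars for the group means. Rows are named by gene and distance from the start of the transcript that the table names for that region. PL and Ctrl points are apart in 16 rows and overlap in the Ank1 row at 37.4 kb.

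Among the spectrins, the listed regions of Sptbn1 were lower and those of Sptb higher after PL. Sptbn1 encodes beta-II spectrin, the main beta chain of the axonal lattice. Its region with the smallest adjusted p was in the gene body (chromosome 11, 30072341 to 30072660), with 4.53, 15.0 and 12.4 after PL against 23.1, 30.7 and 27.7 in Ctrl. All PL libraries lay below all controls. The means were 10.6 ± 5.45 and 27.2 ± 3.81 (SD, n = 3 each), a log2 ratio of −1.27, and the authors' deposited table gave an adjusted p of 0.00412.

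The other Sptbn1 regions of this comparison flanked the start of its longer transcript, NM_175836, and were picked out for this position after their values were seen. The nearer one was centred 312 bp inside the gene (class Promoter1k, chromosome 11, 30119361 to 30119560). It had 5.44, 3.00 and 3.55 after PL and 17.9, 14.7 and 13.3 in Ctrl, a log2 ratio of −1.70. The further one was centred 1908 bp before the start (class Promoter3k, 30121581 to 30121780), with 8.16, 4.50 and 3.55 after PL and 16.8, 19.4 and 17.9 in Ctrl, a log2 ratio of −1.57. In the authors' deposited table their adjusted p-values were 0.0103 and 0.0116. After DCL another lower region lay at the same start, centred 2408 bp before it (30122061 to 30122300), with 9.41, 1.49 and 7.90 against 18.5, 15.5 and 18.7 in Ctrl. Its log2 ratio was −1.35, and −1.71 without the first-listed DCL library. None of these 3 regions overlap, and in each the lesion libraries lay below all controls. The PL means of the nearer pair, 3.997 and 5.40, rest on 10 and 14 reads.

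Sptbn1 has another start, that of NM_009260, 21515 bp downstream, with no listed region within 3 kb in any table; the nearest was centred 5537 bp from it. The sequences before these starts are shown because all Sptbn1 regions of a promoter class lay at the first. That class follows the start of the listed transcript, which spans 120378 bp. The reference gene is longer, 168990 bp, so this start may lie within the gene. They are the 250 bases before each start from RefSeq on GRCm38.p6, minus strand, 5′ to 3′, with CG dinucleotides, the main site of cytosine methylation in mammals, in capitals. The windows were matched to the transcripts by the spacing of the starts, 21515 bp in both annotations. Their coordinates are not those of mm9, and the listed regions lie outside them.
NM_175836 start, chr11:30219773-30220022: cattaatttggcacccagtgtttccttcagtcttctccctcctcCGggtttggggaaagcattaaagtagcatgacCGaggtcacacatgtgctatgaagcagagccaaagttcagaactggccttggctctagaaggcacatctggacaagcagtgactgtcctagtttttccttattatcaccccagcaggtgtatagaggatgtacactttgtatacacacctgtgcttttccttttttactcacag
NM_009260 start, chr11:30198258-30198507: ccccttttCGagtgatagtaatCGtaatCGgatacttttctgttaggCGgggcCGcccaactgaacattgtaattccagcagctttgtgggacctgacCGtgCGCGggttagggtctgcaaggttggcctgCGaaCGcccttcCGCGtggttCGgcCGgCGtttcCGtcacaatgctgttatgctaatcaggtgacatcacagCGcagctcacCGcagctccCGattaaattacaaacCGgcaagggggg
The first window held 2 CG dinucleotides and the second 20, with a median of 6 over the 32851 start windows of the same length in the reference table. Of all windows 92.1% held at least 1 CG, 29.0% held 2 or fewer, and 17.9% held 20 or more.

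Sptb, the beta-I spectrin gene, was higher at all 3 of its regions after PL, spaced from 67184 to 127094 bp into the gene. The one with the smallest adjusted p (chromosome 12, 77721701 to 77721940) had 29.9, 37.5 and 62.1 after PL against 13.7, 22.0 and 14.4 in Ctrl. All PL libraries lay above all controls. The means were 43.2 ± 16.8 and 16.7 ± 4.63 (SD, n = 3 each), a log2 ratio of 1.32, and the authors' deposited table gave an adjusted p of 0.00154. The other pair had means of 36.9 and 22.5 after PL against 18.98 and 8.17 in Ctrl, also with no overlap between groups. In reads, without scaling for depth, this pair held 82 and 51 after PL and 77 and 36 in Ctrl. Of the 7 higher member regions of this comparison 6 had the groups apart, against 95.6% of all higher ones.

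Sptbn4, which encodes the beta-IV spectrin of the axon initial segment and nodes, carried 1 region under its name, in its gene body, and only in this table (chromosome 7, 28151041 to 28151240). It had 15.4, 21.0 and 15.97 after PL and 8.42, 4.01 and 6.92 in Ctrl. The groups did not overlap. The means were 17.5 ± 3.07 and 6.45 ± 2.24 (SD, n = 3 each), a log2 ratio of 1.31, and the authors' deposited table gave an adjusted p of 0.00916. Sptan1, the alpha chain that pairs with these beta chains, carried no listed region between PL and Ctrl.

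The median log2 ratio after PL was 1.31 in the 7 higher member regions and −1.44 in the 10 lower ones, beside 1.19 and −1.51 over all higher and lower listed regions. Sizes in the family were thus near those of the whole table. The lower member regions held 8 to 47 reads summed over the PL libraries and 61 to 206 over the controls. The higher ones held 40 to 266 and 26 to 264. These sums are not scaled for depth, and 1 read had a value of 0.907 to 1.77 in PL against 0.576 to 1.05 in Ctrl. At an adjusted p under 0.01 in the authors' deposited table, 6 higher and 4 lower member regions were left, where 49.4% of all listed regions passed.

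**Figure D3:**
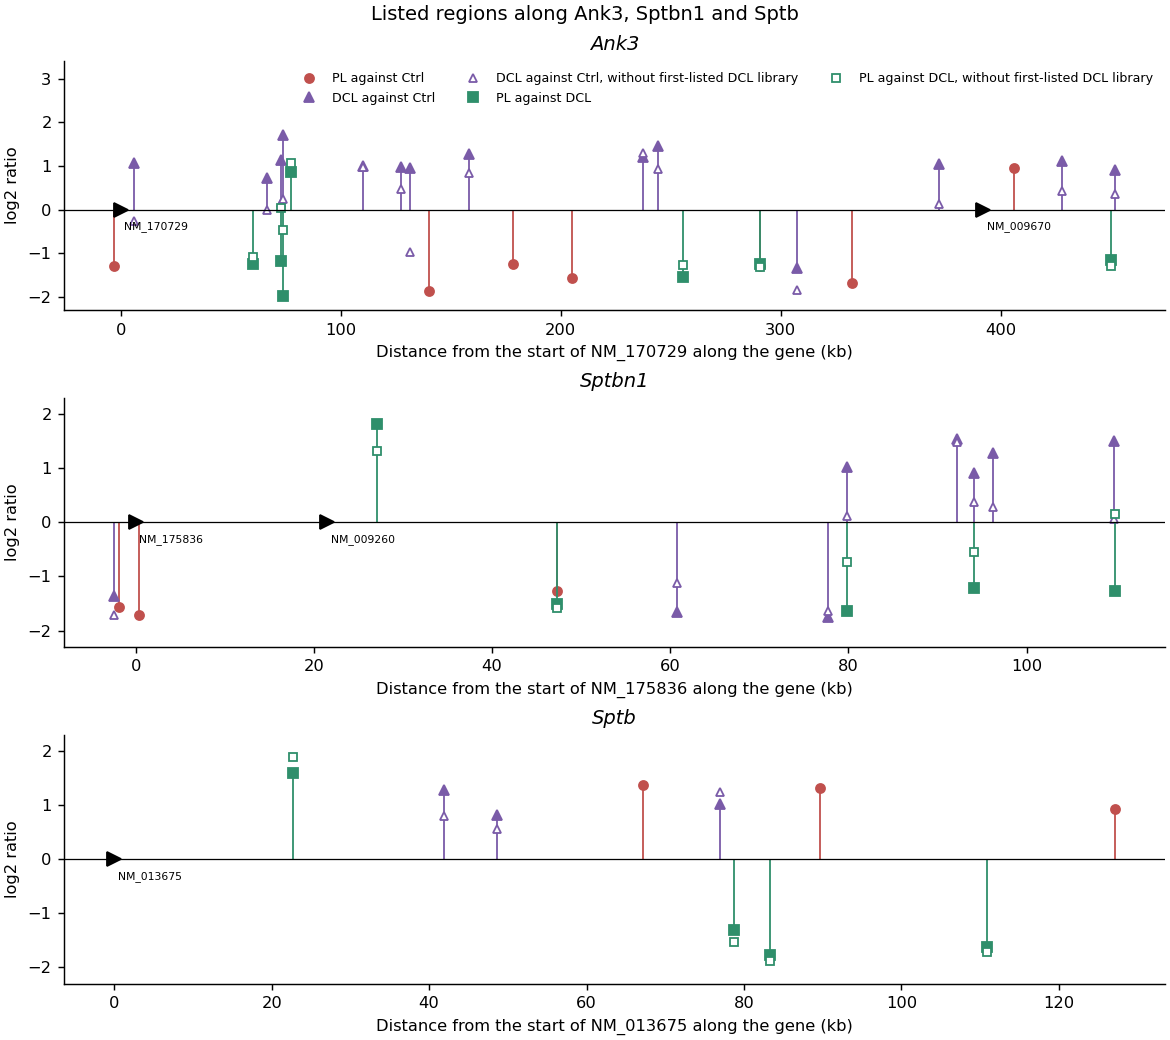
Log2 ratio of each listed region (vertical axis) against its distance along Ank3, Sptbn1 and Sptb from the start of the named transcript (horizontal axis, kb), with filled symbols for all libraries, open symbols without the first-listed DCL library and black arrowheads for transcript starts. Between PL and Ctrl the lower Ank3 regions lie before the second start and the Sptb regions are all above 0. The lower Sptbn1 regions at the left flank the NM_175836 start. Between PL and DCL a lower Ank3 region lies after the second start, and Sptb has 3 regions below 0 and 1 above.

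After DCL most members were listed as higher, but many rested on the first-listed DCL library. Of the 29 higher regions 12 kept a 1.5-fold ratio of means without it (51.4% of all higher listed regions did), and the median log2 ratio fell from 1.12 to 0.46, where it was 1.14 and 0.57 over all higher regions. In 14 of the 29 each DCL library exceeded each control, where 46.5% of all higher regions had this. In reads summed over libraries, without scaling for depth, the higher regions held a median of 70 after DCL and 77 in Ctrl. The 5 lower regions all kept a 1.5-fold ratio, as did 99.8% of all lower ones, and all 5 had the groups apart, as did 99.7%. By gene, the higher regions that kept it were 3 of 4 in Ank1, 2 of 3 in Ank2, 4 of 13 in Ank3, 2 of 3 in Sptb, 1 of 5 in Sptbn1 and 0 of 1 in Sptan1.

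Ank3 had 13 higher regions and 1 lower one. The authors' deposited table gave 3 of the higher regions the same smallest adjusted p, 0.000267. Of these the one with the largest ratio was at chromosome 10, 69070241 to 69070480, where the DCL libraries had 109.8, 17.9 and 15.1 and the controls 13.7, 15.5 and 12.3. A single library carried the difference, and the third-listed DCL library lay within the controls. The means were 47.6 ± 53.9 and 13.8 ± 1.61 (SD, n = 3 each), and the log2 ratio was 1.71 with all libraries and 0.24 without the first-listed one. The region next to it, at 69069341 to 69069620, had 81.5, 16.4 and 23.0 against 18.5, 16.1 and 18.7, and its log2 ratio went from 1.14 to 0.14.

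The others of the 3 kept their difference in each DCL library. One was at chromosome 10, 69233561 to 69233940, with 47.0, 70.2 and 45.4 after DCL against 17.5, 27.9 and 23.5 in Ctrl. Its log2 ratio was 1.20, and 1.29 without the first-listed library. The other was at 69240401 to 69240640, with 40.8, 17.9 and 15.8 against 10.7, 8.68 and 5.88, and its log2 ratio of 1.45 went to 0.92. In both, all DCL libraries lay above all controls. At the other end, 3 of the 13 had a negative log2 ratio without that library, of −0.26, −0.02 and −0.97. In the lower Ank3 region (chromosome 10, 69303761 to 69304040) the DCL libraries had 12.6, 4.48 and 5.26 and the controls 20.5, 22.3 and 17.6. All DCL values were below all controls, with means of 7.43 ± 4.45 and 20.1 ± 2.36 (SD, n = 3 each) and a log2 ratio of −1.33, or −1.85 without the first-listed library. Its adjusted p was 0.000561 in the authors' deposited table.

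Ank2 carried regions under its name in this comparison alone. Its higher region with the smallest adjusted p (chromosome 3, 126635301 to 126635620; 0.000359 in the authors' deposited table) had 81.5, 16.4 and 23.7 after DCL and 21.4, 16.7 and 18.7 in Ctrl. The groups overlapped, and its log2 ratio of 1.06 went to 0.08 without the first-listed library. By contrast the region at 126661541 to 126661740, chosen after its values were seen, had 12.6, 13.4 and 11.8 against 1.95, 4.34 and 5.34, with a log2 ratio of 1.48 both with and without it. These values rest on few reads, 31 after DCL and 19 in Ctrl. The lower Ank2 region lay 4610 bp after the start of NM_178655 (chromosome 3, 126696601 to 126696920). It had 43.9, 38.8 and 23.7 after DCL against 75.0, 57.0 and 66.2 in Ctrl, with no overlap. The means were 35.5 ± 10.5 and 66.1 ± 9.02 (SD, n = 3 each), the log2 ratio was −0.88, or −1.06 without the first-listed library, and the authors' deposited table gave an adjusted p of 0.00169.

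Ank1 had 4 higher regions. The one with the smallest adjusted p, 0.000513 in the authors' deposited table, was the same stretch as after PL (chromosome 8, 24205821 to 24206340). DCL libraries had 414, 127 and 52.6 and controls 70.2, 50.2 and 62.0. The third-listed DCL library lay among the controls. The means were 198 ± 191 and 60.8 ± 10.0 (SD, n = 3 each), and the log2 ratio was 1.69, or 0.56 without the first-listed library. In reads the libraries held 132, 85 and 80 after DCL and 72, 81 and 116 in Ctrl. The other 3 Ank1 regions had log2 ratios of 0.88 to 1.23 without that library. Of these, the region 2772 bp before the start of NM_001310437 (Promoter3k, chromosome 8, 24246621 to 24246840), picked out after its values were seen, had 25.1, 23.9 and 20.4 against 7.80, 8.06 and 10.7.

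**Figure D4:**
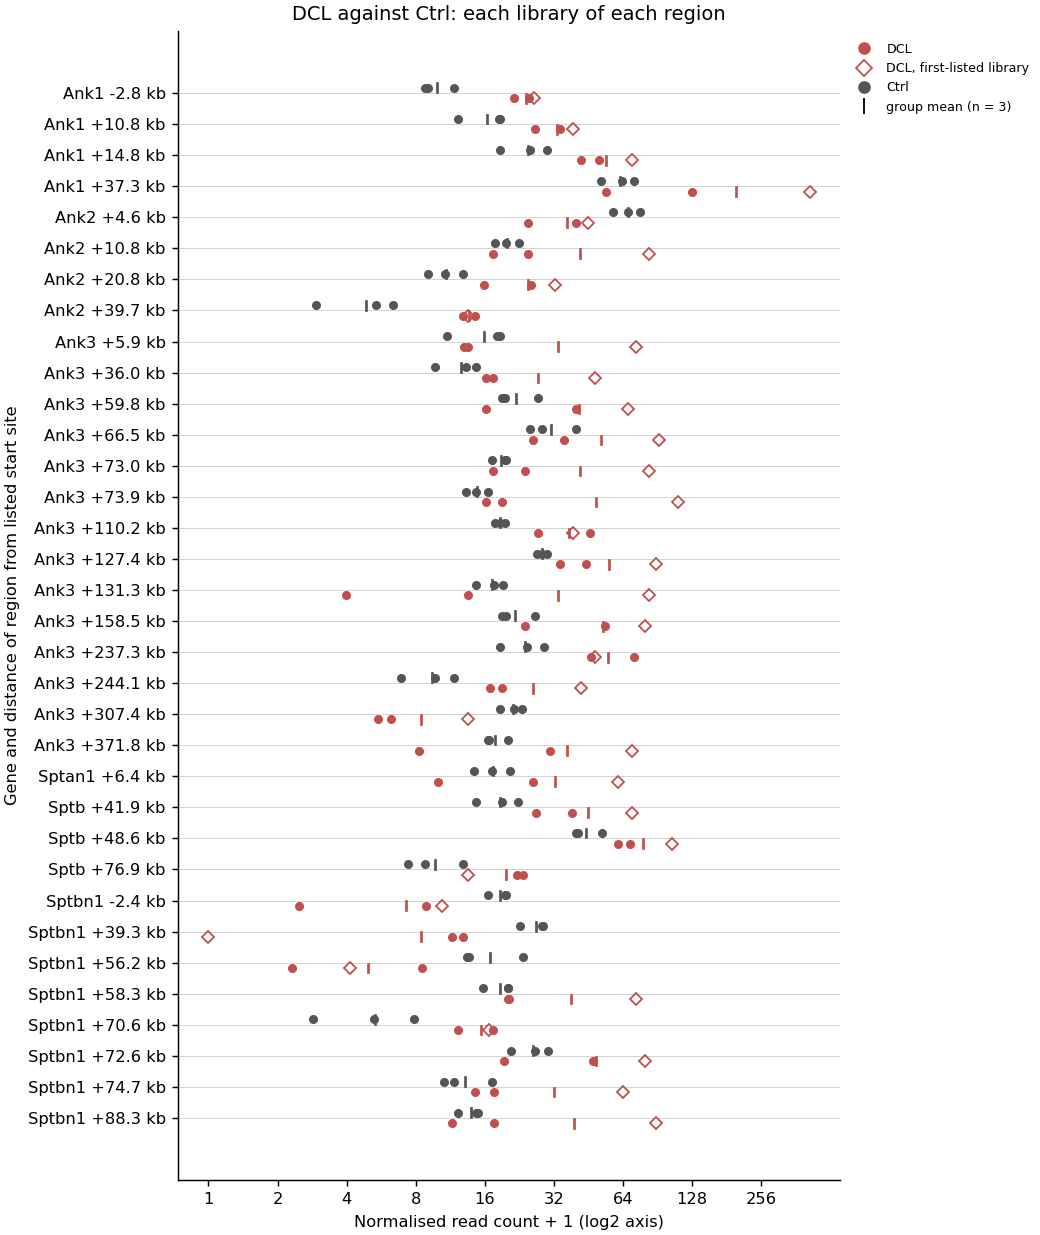
Normalised read count plus 1 on a log2 axis of each DCL (red) and Ctrl (grey) library in the 34 member regions, with open diamonds for the first-listed DCL library and vertical bars for group means. In Ank3 the first-listed library was the highest DCL value in 11 of the 13 higher regions.

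For the spectrins, Sptbn1 had 5 higher and 3 lower regions after DCL. The higher one with the smallest adjusted p (chromosome 11, 30009801 to 30010020) had 87.8, 10.4 and 16.4 after DCL and 13.7, 11.2 and 13.9 in Ctrl. The first-listed library alone was far above the controls. Its log2 ratio was 1.497 and went to 0.06 without that library, while the authors' deposited table gave an adjusted p of 0.000267. The Sptbn1 region at 30027541 to 30027740 kept its ratio and was picked out after its values were seen, with 15.7, 16.4 and 11.2 against 6.82, 1.86 and 4.27 and a log2 ratio of 1.54, or 1.48 without the library. It rests on few reads, 33 after DCL and 18 in Ctrl. All 5 higher regions lay between 79781 and 109862 bp from the NM_175836 start.

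Of the 5 higher Sptbn1 regions 1 kept a 1.5-fold ratio of means without the first-listed DCL library. The following order along the gene was seen after the values were known and was not tested. The lower Sptbn1 regions all lay nearer the NM_175836 start than the higher ones, the closest by a small margin. In the one with the smallest adjusted p (chromosome 11, 30058881 to 30059080; 0.00139 in the authors' deposited table) the DCL libraries had 0, 10.4 and 11.8 and the controls 27.3, 21.7 and 27.8. All DCL values were below all controls. The means were 7.43 ± 6.47 and 25.6 ± 3.38 (SD, n = 3 each), a log2 ratio of −1.66, or −1.13 without the first-listed library, which was the one at 0.

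Sptb was higher at all 3 of its DCL regions, and in each every DCL library was above every control. The region with the smallest adjusted p (chromosome 12, 77769521 to 77769840; 0.000267 in the authors' deposited table) had 69.0, 37.3 and 25.7 against 13.7, 18.0 and 21.4. The means were 44.0 ± 22.4 and 17.7 ± 3.87 (SD, n = 3 each), a log2 ratio of 1.27, or 0.80 without the first-listed library. The 3 DCL regions lay 41854 to 76944 bp into the gene. Sptan1 had 1 higher region, 6440 bp into the gene (chromosome 2, 29827401 to 29827640), with 59.6, 8.96 and 25.0 after DCL and 19.5, 16.1 and 13.4 in Ctrl. The second-listed DCL library lay below all controls. Its log2 ratio of 0.89 went to 0.05 without the first-listed library.

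The direct comparison of the lesions listed Ank3, Sptbn1, Sptb and Sptan1, mostly as lower after PL than after DCL. With the first-listed DCL library left out, 10 of its 14 lower regions kept a 1.5-fold ratio, where 70.4% of all lower regions did, and all 3 higher ones kept it, as did all 5717 higher ones in the table. The groups lay apart in 10 of the 14 lower regions, against 59.0% of all lower ones. Because this table shares its libraries with the other two, regions that recur in it are set side by side and are not separate evidence.

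Lower 5-hmC after PL than in either other group was listed at 2 places. They are 2 of the 17 member regions of each table, or 11.8%, beside 9.78% of all regions of PL against Ctrl and 5.25% of all regions of PL against DCL that overlap the other table. One was the Ank3 stretch described first, here at chromosome 10, 69286861 to 69287340. PL libraries had 17.4, 12.3 and 17.2 and DCL libraries 35.1, 41.0 and 40.0. The groups were far apart and the DCL libraries were close to each other. The means were 15.6 ± 2.84 and 38.7 ± 3.14 (SD, n = 3 each), a log2 ratio of −1.26, or −1.32 without the first-listed DCL library. The authors' deposited table gave an adjusted p of 0.000233, the smallest among all 68 member regions.

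The other was in the Sptbn1 gene body (chromosome 11, 30072441 to 30072640). PL libraries had 0.620, 5.14 and 3.68 against 9.36, 12.2 and 10.7 after DCL. The groups did not overlap, but the PL values rest on 9 reads. Means were 3.15 ± 2.31 and 10.8 ± 1.42 (SD, n = 3 each), the log2 ratio was −1.504, or −1.59 without the first-listed DCL library, and the authors' deposited table gave an adjusted p of 0.00301.

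The log2 ratios of the recurring places with high DCL values moved further without the first-listed DCL library. At the Ank3 stretch 69070241 to 69070460 the PL libraries had 5.58, 6.17 and 12.3 and the DCL libraries 79.6, 13.3 and 9.75, and the log2 ratio of −1.97 went to −0.48 without the first-listed library. At Ank3 69069341 to 69069540 it went from −1.19 to 0.03, and at Sptbn1 30009781 to 30010020 from −1.28 to 0.15. At Sptbn1 30025601 to 30025820 it went from −1.22 to −0.55, and at 30039861 to 30040120 from −1.63 to −0.74. At the last of these places the groups lay apart, and a 1.5-fold ratio was kept without that library. The 5 are 14.7% of the members of DCL against Ctrl and 29.4% of those of PL against DCL, beside 31.4% and 48.2% of all regions of these tables that overlap the other. In the overlapping regions of DCL against Ctrl, all listed as higher after DCL, the log2 ratios without that library were 0.24, 0.14, 0.06, 0.37 and 0.12.

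**Figure D5:**
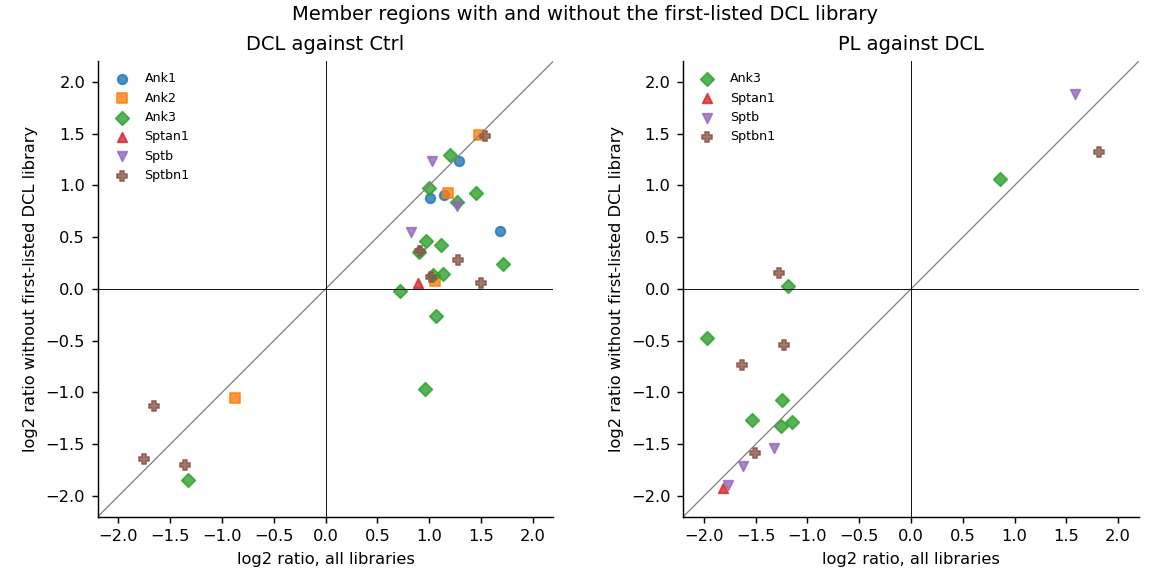
Log2 ratio of each member region with all libraries (horizontal axis) against that without the first-listed DCL library (vertical axis), for DCL against Ctrl and PL against DCL. Points on the grey line do not move, and the higher DCL regions of Ank3 and Sptbn1 fall below it in most cases.

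Regions higher after PL than after DCL were 1 each in Ank3, Sptbn1 and Sptb. The Sptbn1 region lay 5537 bp after the NM_009260 start (chromosome 11, 30092621 to 30092820). PL libraries had 15.5, 16.4 and 20.9 and DCL libraries 0, 5.54 and 7.31. The means were 17.6 ± 2.86 and 4.28 ± 3.81 (SD, n = 3 each), a log2 ratio of 1.82, or 1.32 without the first-listed library, and the authors' deposited table gave an adjusted p of 0.00288. The Sptb region (chromosome 12, 77788741 to 77788940) had 11.8, 12.3 and 9.81 against 4.68, 2.22 and 2.44, with a log2 ratio of 1.58, or 1.89 without that library, on 9 DCL reads. The Ank3 region (chromosome 10, 69073781 to 69074000) had 24.8, 21.6 and 25.8 against 16.4, 12.2 and 9.75, with a log2 ratio of 0.86, or 1.07. In these 3 regions the groups did not overlap, as in 98.5% of all higher listed regions.

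Sptb also had 3 regions lower after PL, so the direct table listed it in both directions. The one with the smallest adjusted p (chromosome 12, 77700521 to 77700720; 0.00388 in the authors' deposited table) had 3.72, 0 and 4.91 after PL and 9.36, 12.2 and 11.2 after DCL. The groups were apart, with means of 2.88 ± 2.56 and 10.9 ± 1.44 (SD, n = 3 each) and a log2 ratio of −1.62, or −1.71 without the first-listed library. Sptan1 had 1 region, 59480 bp into the gene and so near its end (chromosome 2, 29880441 to 29880680). It had 1.24, 0 and 6.13 after PL and 9.36, 11.1 and 13.2 after DCL. The groups did not overlap, with means of 2.46 ± 3.24 and 11.2 ± 1.91 (SD, n = 3 each), a log2 ratio of −1.82, or −1.92 without the first-listed library, and an adjusted p of 0.00163 in the authors' deposited table. No region under the names Ank1, Ank2 or Sptbn4 was listed between the lesions.

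The proteins that work with ankyrins and spectrins were followed in 4 lists. Of 16 membrane skeleton partners (adducins, protein 4.1 family, tropomodulins and others) 11 had a region after PL, 6 of them only higher, 4 only lower and 1 both. After DCL 12 had one, 7 only higher, none only lower and 5 both, and between the lesions 7 had one, 1 only higher, 3 only lower and 3 both. Of 17 membrane proteins that ankyrins anchor, 11, 10 and 7 had a region in the 3 comparisons. Of 8 partners at the axon initial segment and paranode these were 7, 7 and 6, and of 4 genes of the calpain system, proteases that cut spectrin, 3, 3 and 3. The shares over all protein-coding genes are the 20.2%, 38.3% and 30.7% above, and gene length was not matched. After PL the directions within the other lists were mixed, with 5, 3 and 1 genes only higher and 4, 2 and 2 only lower.

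Genes listed in all 3 comparisons were Add3, Epb41, Epb41l1, Epb41l2 and Epb41l3 among the skeleton partners, Dag1, Nfasc, Nrcam, Scn3a, Scn8a and Slc8a1 among the anchored proteins, Camsap2, Cntn1, Cntnap2, Dst and Macf1 at the initial segment and paranode, and Capn1 and Capn2. The share of all protein-coding genes listed in all 3 is not given here. The comparisons share libraries and gene length was not matched, so recurrence is not a result about these partners. Epb41, the protein 4.1 that joins spectrin to actin, had 3.63, 7.50 and 3.55 after PL against 24.2, 18.0 and 21.3 in Ctrl (chromosome 4, 131550661 to 131550980), with no overlap and a log2 ratio of −1.91. Dst, a giant linker of the cytoskeleton, had 14.5, 19.5 and 14.2 against 48.4, 38.7 and 38.6 in its Promoter3k region (chromosome 1, 34219281 to 34219640), a log2 ratio of −1.33. Capn2, a calpain catalytic subunit, had 4.53, 1.5 and 3.55 against 16.8, 18.0 and 13.8 (chromosome 1, 184420581 to 184420840), a log2 ratio of −2.04. The smallest adjusted p among the anchored proteins was that of Dag1, dystroglycan, with 12.7, 10.5 and 8.87 after PL against 48.4, 43.4 and 38.6 in Ctrl and a log2 ratio of −1.93. In each of these 4 regions every PL library lay below every control, as in 6066 of the 6067 lower regions listed between PL and Ctrl.

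After DCL the leading partner regions again differed in how far they rested on the first-listed library. Nfasc, the ankyrin-binding adhesion protein neurofascin, had 25.1, 13.4 and 23.0 against 2.92, 4.96 and 5.34, and its log2 ratio was 1.99, or 1.83 without that library. Epb41l1, a neuronal protein 4.1, had 69.0, 14.9 and 13.8 against 3.90, 11.2 and 11.2, with a log2 ratio of 1.78, or 0.66. Capns1, the small calpain subunit, went from 1.795 to 0.54 and Cntn2, an adhesion protein of the juxtaparanode, from 2.13 to 0.27. Between the lesions Epb41 had a higher region with 18.6, 16.4 and 17.2 after PL against 9.36, 6.65 and 4.39 after DCL, a log2 ratio of 1.24, or 1.497 without the library. The leading lower regions there went from −1.62 to −0.80 in Nfasc, from −1.78 to 0.06 in Cntn2 and from −1.54 to −0.21 in Capns1.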

How the data were processed

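Enriched 5-hmC DNA of 9 libraries was analysed, 3 per group, and 3 inputs were not used here. Fragments of about 250 bp were enriched for 5-hmC by chemical labelling and capture, per the labels' protocols. Per the submitters' processing notes Bowtie2 2.2.0, SAMtools 0.1.19, MACS2 2.1.1 and mm9 were used, with no role given, and which program called the regions is not given in the sources used here.

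Deposited by the authors were 3 tables with 3 normalised read counts per group and region, their mean signal, an enrichment ratio (not used here), a log2 fold change and p-values and adjusted p-values from a test that is not named. Low values were whole multiples of the value of 1 read within a tolerance of 0.1, which gave reads per region. The order of libraries was the same in all tables, since the values of 1 read differed between tables by a common factor per group.

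Rows were kept where the gene name before any # was a member. Means, SDs and log2 ratios (pseudocount 1) were computed with python 3.11.15, numpy 2.4.6 and pandas 2.3.3 and drawn with matplotlib 3.10.9. No count model was fitted, since the tables hold only selected regions. The steps were tested on simulated data. Regions described library by library were, per gene, table and direction, that with the smallest deposited adjusted p (of ties, the larger log2 ratio), and those that overlap by at least 1 bp between tables; others given so are named as picked after their values were seen, or as ties. Partner genes were named where they carried a region in all 3 tables, with the leading region of each list and table. Members and lists were chosen with earlier results of these data known. Alternatives were the adjusted p thresholds of 0.05 and 0.01, a minimum mean of 10, groups that do not overlap, pseudocounts of 0.5 and 5, group medians and leaving out each library.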

Additional observations from a re-analysis of the deposited data

How the results depend on the processing

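No paired analysis was possible because the libraries in the tables carry no replicate number, although the labels number them. At a deposited adjusted p under 0.01 the lower PL member regions fell from 10 to 4. Of the 29 higher DCL regions 14 had all libraries apart. With each library left out in turn, regions that kept a 1.5-fold ratio numbered 6 to 7 higher and 10 to 10 lower after PL, 12 to 29 higher and 5 to 5 lower after DCL, and 3 to 3 higher and 10 to 14 lower between the lesions; the low ends of the DCL and the direct comparison were without the first-listed DCL library. An added count with all libraries, chosen after seeing the data, kept every region at 1.5-fold.

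The median log2 ratio with a pseudocount of 5 was −1.02 over all and −1.14 over lower PL regions, −1.02 over lower DCL regions, and 1.01 and −1.04 over higher and lower regions between the lesions, each nearer 0 by construction. With group medians it was −1.08 over all PL regions. Without 1 library the median ranged from −1.26 to −0.95 over all, 1.09 to 1.39 over higher and −1.58 to −1.40 over lower PL regions, from 0.36 to 1.32, 0.46 to 1.34 and −1.64 to −1.09 after DCL, and from −1.51 to −1.08, 1.32 to 1.67 and −1.61 to −1.28 between the lesions. Of the 68 member regions 5 changed sign without the first-listed DCL library, and 0 without any other library. Of these, 2 were between the lesions: the log2 ratio with 1 library left out ranged from −1.58 to 0.029 in Ank3 chromosome 10 69069341 to 69069540 and from −1.71 to 0.15 in Sptbn1 chromosome 11 30009781 to 30010020. The other 3 were Ank3 regions of DCL against Ctrl, with ranges of −0.26 to 1.45 at 69002261 to 69002460, −0.020 to 1.03 at 69062781 to 69063120 and −0.97 to 1.49 at 69127681 to 69127900. By group median 2 changed sign, 69002261 to 69002460 at −0.42 and 69127681 to 69127900 at −0.38, and with another pseudocount 0 did. Depth limits single regions: reads summed over a group went down to 7 in lower and 9 in higher regions between the lesions.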
